A study of Homo sapiens with 8 samples.

Results

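The genes described here are 36 listed genes of protein folding and quality control in the endoplasmic reticulum (ER): chaperones, disulfide enzymes, the machinery of ER-associated degradation (ERAD), the sensors of the unfolded protein response (UPR) and parts of the translocon and of vesicle export. A gene was measured where at least 1 probe set of the array mapped to its symbol alone, and its brightest such probe set, by the mean of all 8 arrays, was used. This gave 34 genes of the 19775 measured in the series, and TXNDC5 and SYVN1 were not analysed here. By role, 9 of the 34 are chaperones and co-chaperones, 2 are lectin chaperones, 7 are disulfide enzymes or thioredoxin-fold proteins, 8 belong to ERAD, 4 are sensors or transcription factors, and 4 serve translocation or COPII export.

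All arrays held RNA of NCI-H1975, a human lung adenocarcinoma line that grows on a mutant epidermal growth factor receptor (EGFR). The 8 conditions crossed 4 drug treatments with L-histidinol at 2 mM or without it, all for 24 hours: osimertinib (10 nM) with alpelisib (1 µM), called the combination below, osimertinib alone, alpelisib alone, and the DMSO vehicle. Osimertinib inhibits mutant EGFR, alpelisib inhibits the alpha isoform of phosphoinositide 3-kinase, and L-histidinol is a histidine analog that blocks the charging of histidine tRNA and thereby sets off the amino acid response. Each condition had 1 array, so every test rests on effects shared across conditions: 4 array pairs for L-histidinol and 2 arrays against 2 for each drug comparison.

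Proteins that enter the ER are folded by HSPA5 and its partners, joined by disulfide bonds through the protein disulfide isomerases, and, if they fail, drawn back to the cytosol and degraded by ERAD. When unfolded protein builds up, the sensors IRE1 (encoded by ERN1), ATF6 and PERK release HSPA5 and signal to the nucleus: IRE1 splices the mRNA of XBP1, ATF6 is cut into a transcription factor, and PERK phosphorylates the initiation factor eIF2 so that ATF4 is translated. GCN2, the kinase that senses uncharged tRNA, phosphorylates the same factor, so that amino acid shortage reaches ATF4 without passing through the ER. Array values do not separate spliced from unspliced XBP1.

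The ER stress element (ERSE), bound by ATF6 with NF-Y, and its shorter relative ERSE-II are the textbook promoter elements of this response. RefSeq promoter windows (GRCh38.p14, 250 bases before to 50 after each gene's start) were found for 32 of the 36 genes, 41 windows in all; SEC24D, DERL1, PDIA3 and DERL3 had none. Both strands were searched for ERSE (CCAAT, then 9 bases of any kind, then CCACG), ERSE-II (ATTGG, 1 base of any kind, CCACG), the UPR element (TGACGTGG) and the C/EBP-ATF response element, bound by ATF4 (TGATG, 1 base of any kind, AA). ERSE was found in the windows of 8 listed genes (HSPA5, HSP90B1, CRELD2, CALR, CANX, PDIA6, ERO1B and XBP1), against 0.0769% of all 35116 windows. ERSE-II was found in HYOU1, SDF2L1 and HERPUD1, against 0.0541% of all windows. The UPR element was found in HYOU1, TXNDC5 and DNAJC10 (0.729% of all windows) and the C/EBP-ATF response element in HERPUD1 and CREB3L2 (3.62%). In HYOU1 the first ERSE-II match overlaps the UPR element. The stretches from 200 bases before the start to the last base before it follow, 5′ to 3′ on the gene's strand, with the ERSE or ERSE-II match in capitals. HYOU1 and SDF2L1 are shown because both hold ERSE-II and moved in opposite directions under L-histidinol, XBP1 and CRELD2 because both hold ERSE and did the same, and HERPUD1 and HSPA5 as textbook targets from ERAD and from the chaperones.
HYOU1, chr11:119057206-119057405, minus strand: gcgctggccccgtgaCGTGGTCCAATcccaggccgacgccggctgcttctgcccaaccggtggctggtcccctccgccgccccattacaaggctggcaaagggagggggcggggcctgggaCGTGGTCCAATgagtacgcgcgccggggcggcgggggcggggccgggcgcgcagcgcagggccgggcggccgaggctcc
SDF2L1, chr22:21642102-21642301, plus strand: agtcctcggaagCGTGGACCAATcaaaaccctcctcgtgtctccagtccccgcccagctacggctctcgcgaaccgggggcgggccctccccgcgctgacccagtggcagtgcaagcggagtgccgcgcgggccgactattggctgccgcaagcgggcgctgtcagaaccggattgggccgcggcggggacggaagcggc
HERPUD1, chr16:56931942-56932141, plus strand: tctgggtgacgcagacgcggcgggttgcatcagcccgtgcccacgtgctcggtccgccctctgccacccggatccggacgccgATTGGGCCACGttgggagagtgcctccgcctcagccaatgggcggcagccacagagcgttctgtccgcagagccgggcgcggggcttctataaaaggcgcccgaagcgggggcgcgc
XBP1, chr22:28800570-28800769, minus strand: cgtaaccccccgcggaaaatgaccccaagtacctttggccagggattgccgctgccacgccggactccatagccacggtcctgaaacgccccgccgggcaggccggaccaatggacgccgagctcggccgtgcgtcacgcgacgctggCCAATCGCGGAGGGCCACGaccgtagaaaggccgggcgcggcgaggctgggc
CRELD2, chr22:49918434-49918633, plus strand: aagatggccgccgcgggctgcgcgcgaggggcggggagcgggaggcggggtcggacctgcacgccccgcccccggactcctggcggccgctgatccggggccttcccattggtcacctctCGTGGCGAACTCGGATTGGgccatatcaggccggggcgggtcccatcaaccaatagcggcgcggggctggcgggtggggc
HSPA5, chr9:125241344-125241543, minus strand: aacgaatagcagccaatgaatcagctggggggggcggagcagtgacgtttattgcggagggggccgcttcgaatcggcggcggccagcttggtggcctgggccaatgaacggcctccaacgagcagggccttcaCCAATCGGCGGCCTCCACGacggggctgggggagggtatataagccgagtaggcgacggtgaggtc

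The median probe set intensity lay between 21.8 and 22.4 on the 8 arrays. The 6 epithelial marker genes had mean log2 intensities between 8.53 and 12.47, whereas 10 of 11 markers of blood, endothelium and fibroblasts lay between 2.17 and 5.79; the exception was COL1A1 at 9.14. The ratio of 3′ to 5′ signal of ACTB lay between 1.10 and 1.15 on the arrays with L-histidinol and between 1.04 and 1.07 on those without, and that of GAPDH between 0.966 and 0.982 with L-histidinol and between 0.978 and 1.01 without it. The part of this difference in the L-histidinol results was not tested. Less RNA per cell of one transcript and a change in the mix of cells within the culture cannot be told apart on such arrays.

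Genes of the module were called in both directions under L-histidinol, osimertinib and the combination; under alpelisib the 1 lower call, ERO1A (adjusted p = 0.0499), ended in 10 of 15 alternative analyses. A gene was called where its limma adjusted p, over all 19775 genes, was below 0.05, and changes are log2 differences ± standard error (1 log2 unit is 2-fold). With L-histidinol 9 of the 34 genes were higher and 8 lower, beside 11.4% higher and 9.17% lower of all genes. Under the combination against vehicle 9 were higher and 10 lower (all genes 21.4% and 19.2%), under osimertinib 6 and 6 (all genes 16.4% and 14%) and under alpelisib 3 and 1 (all genes 7.08% and 4.38%). The combination against osimertinib gave 2 higher and 5 lower (all genes 5.96% and 7.41%), and against alpelisib 5 higher and 9 lower (all genes 14.6% and 14.4%). Dim genes are called less often, and 33 of the 34 have a mean log2 intensity of 5 or more, as do 11627 of all genes. With L-histidinol 26.5% of the 34 were higher and 23.5% lower, against 18.2% and 14.1% of the 11627. Under the combination 26.5% of the 34 were higher and 29.4% lower, against 32% and 29.9% of the 11627, so the share called was no larger in the module. The same held under osimertinib (17.6% and 17.6% against 25.3% and 22.4%) and alpelisib (8.82% and 2.94% against 11.4% and 7.16%). For the combination against osimertinib the shares were 5.88% higher and 14.7% lower, beside 9.22% and 12.1%. Against alpelisib they were 14.7% and 26.5%, beside 22.2% and 23%. Median changes of the 34 genes were 0.08 with L-histidinol (-0.01 for all genes), -0.04 for the combination (-0.001), -0.02 for osimertinib (0.01) and 0.01 for alpelisib (-0.0017). In all, 27 genes were called in at least 1 of these 6 comparisons, and DNAJC3, CANX, PDIA3, PDIA4, DERL2, DERL3 and ATF6 in none. Averaged over a role, after each gene was centred on its own mean over the arrays, the 9 chaperones and co-chaperones stood at -0.16 with and -0.16 without L-histidinol under the combination, -0.09 with and 0.03 without L-histidinol under osimertinib, 0.04 with and 0.10 without L-histidinol under alpelisib, and 0.10 with and 0.13 without L-histidinol under vehicle. The 8 ERAD genes stood at 0.12 with and 0.05 without L-histidinol under the combination, 0.11 with and -0.04 without L-histidinol under osimertinib, 0.06 with and -0.05 without L-histidinol under alpelisib, and -0.01 with and -0.24 without L-histidinol under vehicle. The chaperone average was thus lowest under the combination and the ERAD average lowest under vehicle without L-histidinol; the 4 sensors and factors averaged 0.16 with and 0.01 without L-histidinol under the combination, 0.11 with and -0.09 without L-histidinol under osimertinib, 0.09 with and -0.17 without L-histidinol under alpelisib, and 0.13 with and -0.23 without L-histidinol under vehicle.

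**Figure D1:**
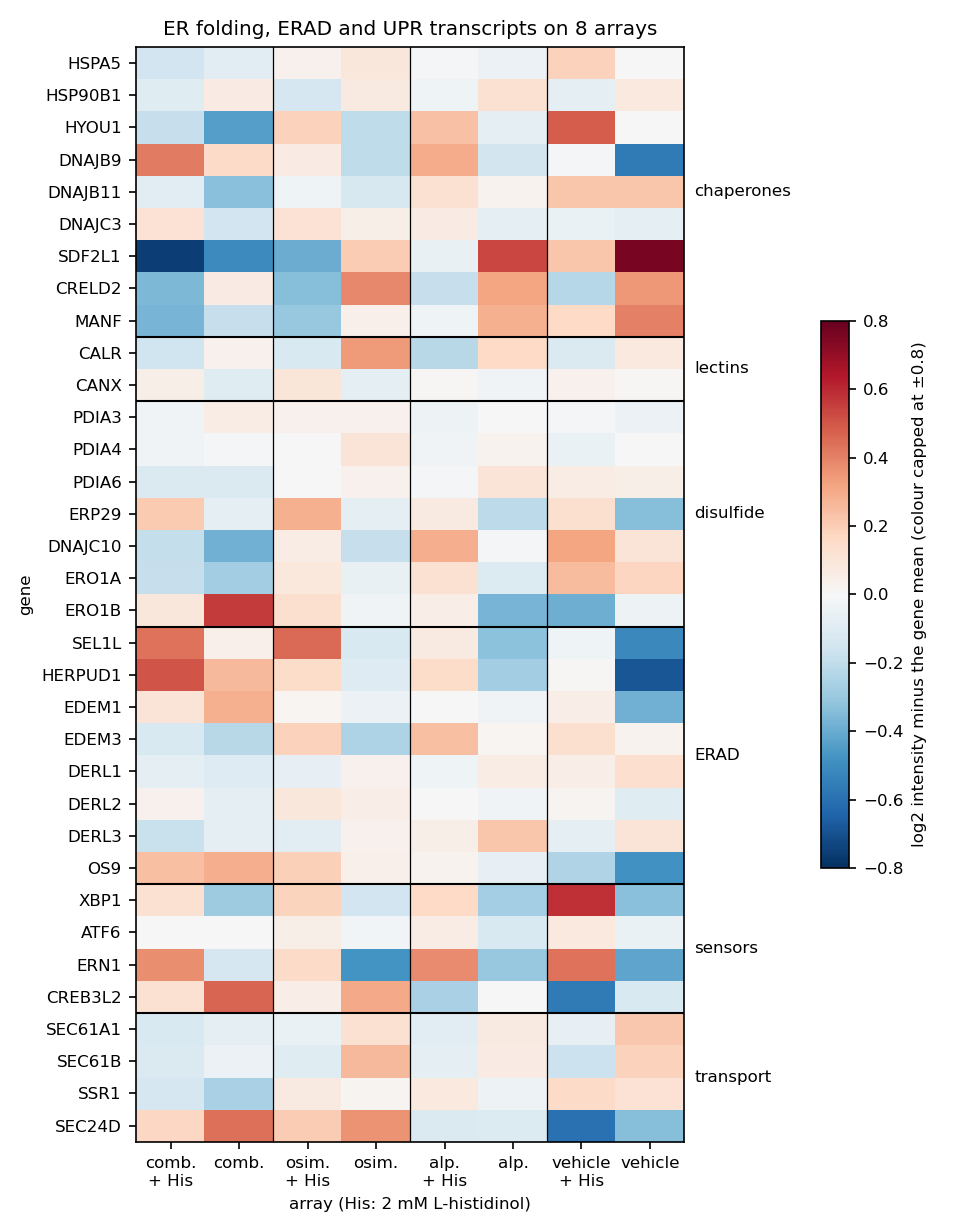
Level of the 34 measured genes (rows, grouped by role) on the 8 arrays (columns; comb., osim. and alp. are the combination, osimertinib and alpelisib, + His marks 2 mM L-histidinol), as log2 intensity minus the gene's mean over the arrays, with colours capped at 0.8 either way. SDF2L1 is lowest under the combination with L-histidinol (7.83) and highest under vehicle alone (9.34), while PDIA3 and PDIA4 hardly vary.

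Under L-histidinol the chaperones split. Beside each role's calls stand those of all genes with a mean log2 intensity of 5 or more, 18.2% higher and 14.1% lower. HYOU1, the nucleotide exchange factor of HSPA5, and DNAJB9, the co-chaperone that holds IRE1 in check, were higher, whereas SDF2L1, CRELD2, MANF and HSP90B1 were lower. HYOU1 stood at 9.06 with and 8.81 without L-histidinol under the combination, 9.43 with and 9.04 without under osimertinib, 9.48 with and 9.16 without under alpelisib, and 9.73 with and 9.24 without under vehicle. It was higher with L-histidinol in every pair, by 0.36 ± 0.05 (adjusted p = 0.000714). SDF2L1, which works with the co-chaperone DNAJB11, stood at 7.83 with and 8.07 without L-histidinol under the combination, 8.18 with and 8.79 without under osimertinib, 8.53 with and 9.12 without under alpelisib, and 8.81 with and 9.34 without under vehicle. It was lower with L-histidinol in every pair (change -0.49 ± 0.07, adjusted p = 0.000462), though its 2 lowest values without L-histidinol overlapped the range with it. These 2 genes share ERSE-II in the promoters printed above.

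CRELD2, an ER-resident folding factor induced by ER stress, gave the largest fall of the module with L-histidinol. It stood at 8.44 with and 8.86 without L-histidinol under the combination, 8.46 with and 9.18 without under osimertinib, 8.61 with and 9.11 without under alpelisib, and 8.57 with and 9.14 without under vehicle. All 4 values with L-histidinol lay below all 4 without it, and the change was -0.56 ± 0.06 (adjusted p = 0.00011). MANF, a secreted protein that binds HSPA5, changed by -0.27 ± 0.05 (adjusted p = 0.00208). Its level was 9.05 with and 9.24 without L-histidinol under the combination, 9.12 with and 9.46 without under osimertinib, 9.39 with and 9.71 without under alpelisib, and 9.58 with and 9.82 without under vehicle. DNAJB9 stood at 8.54 with and 8.28 without L-histidinol under the combination, 8.19 with and 7.92 without under osimertinib, 8.42 with and 7.98 without under alpelisib, and 8.11 with and 7.56 without under vehicle, and its change was 0.38 ± 0.06 (adjusted p = 0.00162). HSP90B1, the ER form of HSP90, changed by -0.17 ± 0.04 (adjusted p = 0.0147). It lay between 9.63 and 9.73 with L-histidinol and between 9.84 and 9.89 without it, with no overlap. HSPA5 itself did not pass the test, at 0.02 ± 0.05 (adjusted p = 0.799), nor did DNAJB11 (0.11 ± 0.05, adjusted p = 0.131) or DNAJC3 (0.13 ± 0.06, adjusted p = 0.153). HSPA5 stood at 11.29 with and 11.36 without L-histidinol under the combination, 11.48 with and 11.53 without under osimertinib, 11.43 with and 11.40 without under alpelisib, and 11.63 with and 11.44 without under vehicle, so the sign of its pair differences varied with the drug.

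Of the lectin chaperones, which hold glycoproteins until they fold, CALR was lower with L-histidinol (-0.31 ± 0.05, adjusted p = 0.00231). It lay between 9.60 and 9.71 with L-histidinol and between 9.86 and 10.17 without it, with no overlap. CANX changed by 0.09 ± 0.04 and was not called. Of the 7 disulfide enzymes and thioredoxin-fold proteins 3 were higher and none lower. Among all genes with a mean log2 intensity of 5 or more, 18.2% were higher and 14.1% lower. ERP29, a thioredoxin-fold escort without the usual active-site cysteines, stood at 10.71 with and 10.43 without L-histidinol under the combination, 10.78 with and 10.43 without under osimertinib, 10.57 with and 10.29 without under alpelisib, and 10.62 with and 10.16 without under vehicle and changed by 0.35 ± 0.04 (adjusted p = 0.000405). DNAJC10, the reductase that opens disulfides of ERAD substrates, stood at 8.74 with and 8.54 without L-histidinol under the combination, 8.99 with and 8.74 without under osimertinib, 9.22 with and 8.92 without under alpelisib, and 9.25 with and 9.03 without under vehicle and changed by 0.24 ± 0.05 (adjusted p = 0.0045). ERO1A, the oxidase that recharges the isomerases, changed by 0.14 ± 0.04 (adjusted p = 0.0429), and its call ended in 8 of 15 alternative analyses. The isomerases PDIA3, PDIA4 and PDIA6 changed by -0.03 ± 0.04, -0.05 ± 0.04 and -0.04 ± 0.04, and none of them was called. ERO1B was the 1 measured gene with a mean log2 intensity below 5, at 2.49, and changed by -0.06 ± 0.14.

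Of the 8 ERAD genes, SEL1L and HERPUD1 were higher with L-histidinol and the others were not called. SEL1L, the scaffold of the SYVN1 ubiquitin ligase, stood at 10.12 with and 9.72 without L-histidinol under the combination, 10.14 with and 9.56 without under osimertinib, 9.75 with and 9.36 without under alpelisib, and 9.65 with and 9.17 without under vehicle. Its change was 0.46 ± 0.05 (adjusted p = 0.000113), with a higher value in every pair. HERPUD1, which brings substrates to the same ligase, stood at 10.41 with and 10.17 without L-histidinol under the combination, 10.05 with and 9.81 without under osimertinib, 10.06 with and 9.63 without under alpelisib, and 9.92 with and 9.22 without under vehicle, and its change was 0.40 ± 0.07 (adjusted p = 0.00189). The pair difference of HERPUD1 was 0.25 under the combination, 0.25 under osimertinib, 0.42 under alpelisib and 0.69 under vehicle. EDEM3, a mannosidase that marks glycoproteins for ERAD, changed by 0.21 ± 0.07 (adjusted p = 0.0524). EDEM1, DERL1, DERL2, DERL3 and OS9 changed by 0.08 ± 0.09, -0.06 ± 0.04, 0.07 ± 0.05, -0.15 ± 0.07 and 0.11 ± 0.05.

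Among the sensors and transcription factors, ERN1 and XBP1 were higher with L-histidinol, CREB3L2 was lower and ATF6 was not called (0.10 ± 0.06, adjusted p = 0.289). ERN1 stood at 6.96 with and 6.45 without L-histidinol under the combination, 6.74 with and 6.11 without under osimertinib, 6.96 with and 6.28 without under alpelisib, and 7.01 with and 6.16 without under vehicle. All 4 values with L-histidinol lay above all 4 without it. The change of 0.67 ± 0.07 (adjusted p = 0.000156) was the largest rise of the 34 genes on their brightest probe sets. The other ERN1 probe set with a mean log2 intensity of 5 or more gave 0.37, also called. XBP1 stood at 8.17 with and 7.76 without L-histidinol under the combination, 8.23 with and 7.89 without under osimertinib, 8.21 with and 7.78 without under alpelisib, and 8.64 with and 7.71 without under vehicle. Its values with L-histidinol also lay above all those without it, with a change of 0.52 ± 0.09 (adjusted p = 0.00168) and a pair difference of 0.92 under vehicle against 0.34 to 0.43 under the drugs. CREB3L2, a membrane-bound factor that drives secretory pathway genes in mouse cartilage, stood at 9.28 with and 9.62 without L-histidinol under the combination, 9.21 with and 9.47 without under osimertinib, 8.90 with and 9.16 without under alpelisib, and 8.59 with and 9.04 without under vehicle. It was lower with L-histidinol in every pair (-0.33 ± 0.05, adjusted p = 0.00112). In transport, the translocon subunits SEC61A1 and SEC61B were lower (-0.17 ± 0.05, adjusted p = 0.0272, and -0.23 ± 0.05, adjusted p = 0.0099), while SSR1, of the translocon-associated complex, and the COPII coat gene SEC24D were not called (0.08 ± 0.04 and -0.18 ± 0.07).

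Of the 17 calls for L-histidinol 13 held with each of the 8 arrays left out in turn. The other 4 ended without single arrays of the osimertinib or alpelisib pairs: ERO1A (0.11 to 0.16 over the left-out arrays), HSP90B1 (-0.18 to -0.16), SEC61B (-0.28 to -0.19, osimertinib pair alone) and SEC61A1 (-0.21 to -0.13, also without either vehicle array). With the mean of all probe sets of a gene, 5 calls ended: those of XBP1 (0.25, adjusted p = 0.0546), HERPUD1 (0.24, adjusted p = 0.138), SEC61B (-0.06, adjusted p = 0.663), SEC61A1 (-0.14) and ERO1A (0.09). SEL1L and ERN1 kept their calls there at smaller changes (0.18 and 0.36). A single prior variance for all genes, in place of one that follows intensity, ended the calls of ERO1A, HSP90B1, SEC61A1 and SEC61B. That of ERO1A also ended under quantile normalization and, at 0.08, without the marked probe sets, whose names end in _x_at, _s_at or _a_at. For HERPUD1, HSP90B1, HYOU1, SDF2L1, SEC61A1 and SEL1L all probe sets are marked, so that setting gave them no value in any comparison.

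**Figure D2:**
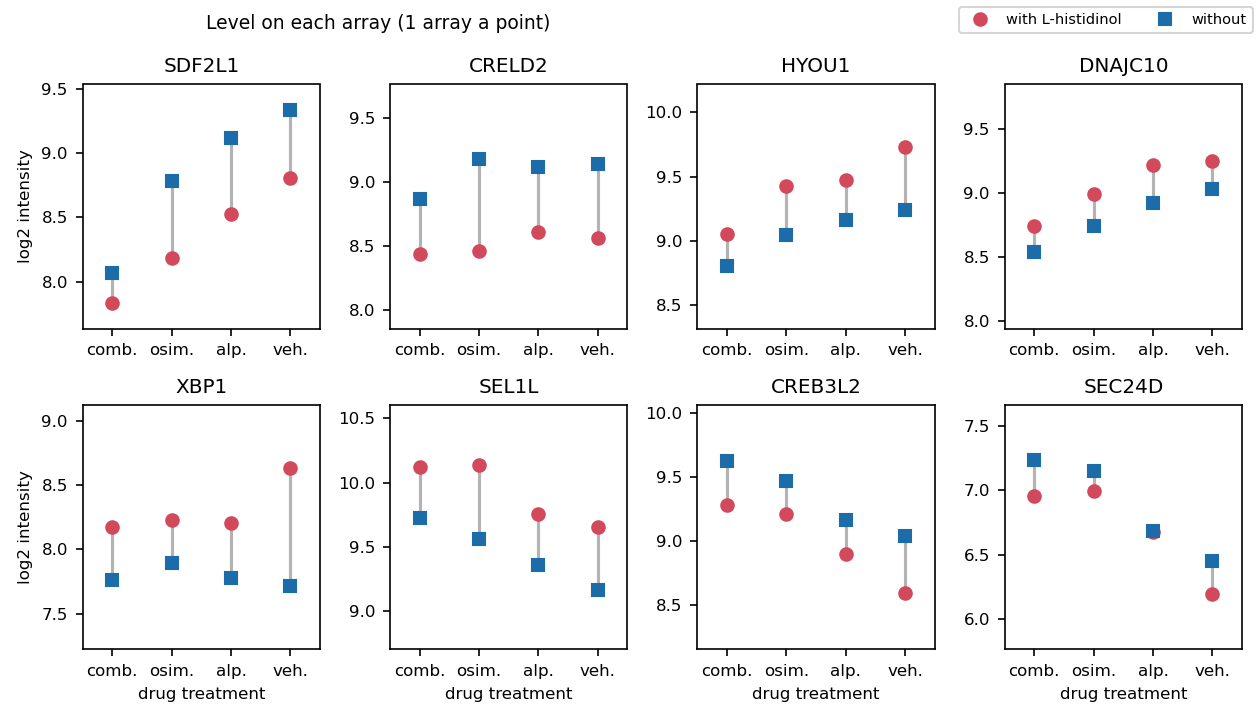
Log2 intensity (vertical axes, each spanning the same range of log2 units) of 8 genes under the 4 drug treatments, with L-histidinol (circles) and without it (squares); each point is 1 array and a line joins the pair of one drug treatment. CRELD2 and XBP1 separate by L-histidinol without overlap, SDF2L1 is lowest under the combination, CREB3L2 is highest there at either L-histidinol level, and SEC24D is higher under the combination and osimertinib than under alpelisib and vehicle.

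Under the combination against vehicle, most chaperones that changed were lower and most ERAD genes that changed were higher. Of 9 chaperones and co-chaperones 5 fell and 1 rose, with a median of -0.21, and of 8 ERAD genes 4 rose and 1 fell, with a median of 0.19. Of all genes with a mean log2 intensity of 5 or more, 32% were called higher and 29.9% lower. Of 21 further ERAD genes, counted below, 8 rose and 8 fell. The difference between the chaperones and the ERAD genes was not tested. SDF2L1, whose 8 values are given above, fell by 1.12 ± 0.09 (adjusted p = 1.97e-06), the largest change of the module. Its 2 values under the combination lay below all 6 others. HYOU1 changed by -0.55 ± 0.07 (adjusted p = 6.86e-05) and MANF by -0.56 ± 0.07 (adjusted p = 3.37e-05). The combination value of HYOU1 with L-histidinol (9.06) lay just above its osimertinib value without L-histidinol (9.04) and below the other single-drug and vehicle values. DNAJB11 stood at 10.33 with and 10.09 without L-histidinol under the combination, 10.39 with and 10.29 without under osimertinib, 10.54 with and 10.45 without under alpelisib, and 10.64 with and 10.64 without under vehicle, and its change was -0.43 ± 0.07 (adjusted p = 0.000202). HSPA5 changed by -0.21 ± 0.07 (adjusted p = 0.0223). DNAJB9 was the 1 co-chaperone that rose (0.57 ± 0.09, adjusted p = 0.000253). CRELD2, the largest fall with L-histidinol, changed by -0.20 ± 0.08 (adjusted p = 0.0678) under the combination and was not called. HSP90B1 and DNAJC3 changed by -0.02 ± 0.06 and 0.04 ± 0.08.

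The lectin chaperones CALR and CANX changed by -0.04 ± 0.08 and -0.05 ± 0.06 under the combination, neither of them called, though other probe sets of both were called lower (given with the probe sets). Among the disulfide enzymes DNAJC10 fell by 0.50 ± 0.07 (adjusted p = 8.57e-05) and ERO1A by 0.44 ± 0.06 (adjusted p = 9.18e-05). ERO1A stood at 10.16 with and 10.07 without L-histidinol under the combination, 10.43 with and 10.29 without under osimertinib, 10.47 with and 10.24 without under alpelisib, and 10.60 with and 10.52 without under vehicle. PDIA6 fell by less (-0.17 ± 0.06, adjusted p = 0.028), ERP29 rose (0.18 ± 0.06, adjusted p = 0.0424), and ERO1B was called higher at its low level (0.54 ± 0.19, adjusted p = 0.0451). PDIA3 and PDIA4 changed by 0.05 ± 0.05 and 0.00 ± 0.05. With L-histidinol the changes of DNAJC10 and ERO1A were 0.24 ± 0.05 and 0.14 ± 0.04, from the same 8 arrays.

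In ERAD, HERPUD1 (0.72 ± 0.10, adjusted p = 8.40e-05), OS9 (0.63 ± 0.07, adjusted p = 1.90e-05), SEL1L (0.51 ± 0.07, adjusted p = 7.25e-05) and EDEM1 (0.36 ± 0.12, adjusted p = 0.0339) rose. OS9, the lectin that hands glycoproteins to the SEL1L complex, stood at 10.88 with and 10.94 without L-histidinol under the combination, 10.84 with and 10.69 without under osimertinib, 10.67 with and 10.58 without under alpelisib, and 10.40 with and 10.16 without under vehicle. Both combination values lay above the other 6, and both vehicle values lay below them. DERL1, of the derlin channel family, fell (-0.19 ± 0.06, adjusted p = 0.0301), and EDEM3, DERL2 and DERL3 changed by -0.25 ± 0.10, 0.01 ± 0.06 and -0.14 ± 0.09. Of the sensors and factors CREB3L2 rose (0.64 ± 0.07, adjusted p = 1.91e-05), while ATF6, ERN1 and XBP1 changed by -0.01 ± 0.08, 0.11 ± 0.10 and -0.21 ± 0.12 and were not called. In transport, SEC24D rose (0.77 ± 0.10, adjusted p = 4.98e-05) and SSR1 fell (-0.33 ± 0.06, adjusted p = 0.000736), while SEC61A1 and SEC61B changed by -0.17 ± 0.07 and -0.09 ± 0.08. SEC24D stood at 6.96 with and 7.23 without L-histidinol under the combination, 6.997 with and 7.15 without under osimertinib, 6.67 with and 6.68 without under alpelisib, and 6.20 with and 6.45 without under vehicle. Both values under the combination and both under osimertinib lay above all values under alpelisib and vehicle.

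Of the 19 calls for the combination 13 held with each array left out in turn. Calls ended without 1 or more single arrays for DERL1 (-0.24 to -0.13 over the left-out arrays), EDEM1 (0.12 to 0.59), ERO1B (0.27 to 0.81), ERP29 (0.10 to 0.26), HSPA5 (-0.32 to -0.10) and PDIA6 (-0.20 to -0.14). Centring each array on its median moved the median change of all genes to -0.13 and the split of the 34 genes to 6 higher and 17 lower; the other alternatives ended calls among these 6 genes and of 4 more. The mean of all probe sets ended those of HERPUD1 (0.33, adjusted p = 0.0921) and SSR1 (-0.14), and leaving out the marked probe sets those of ERO1A (-0.15, adjusted p = 0.125) and CREB3L2 (-0.01), with SSR1 at 0.68. On the mean of all probe sets CREB3L2 (0.27), ERO1A (-0.28) and SEL1L (0.28) kept their calls at smaller changes, and without the marked ones DNAJB9 did (0.30).

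**Figure D3:**
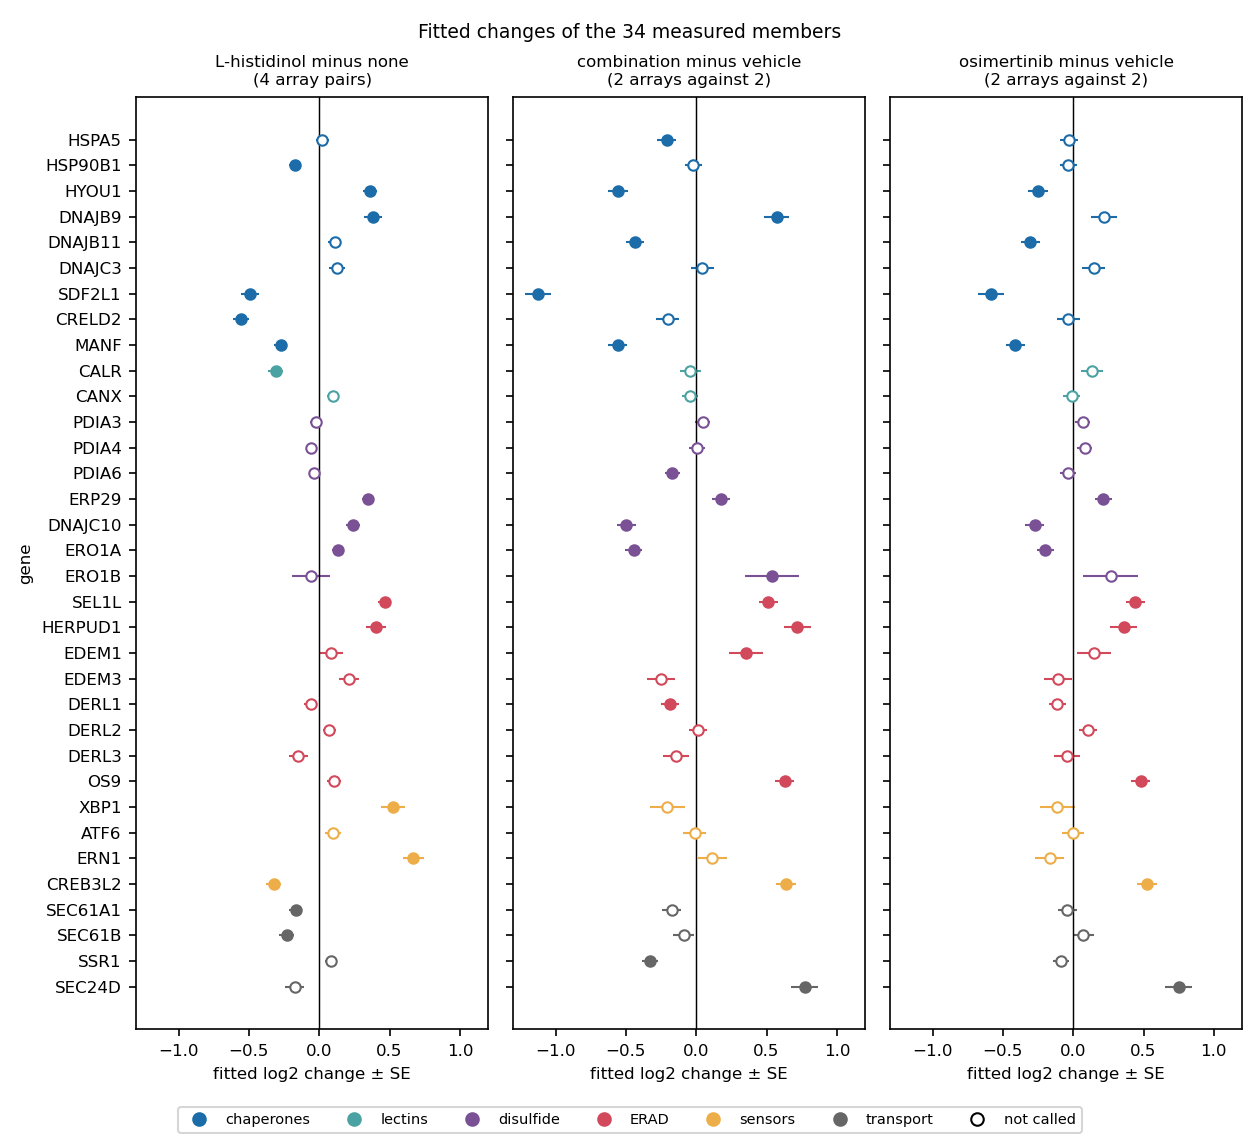
Fitted log2 change with its standard error (horizontal axes) of the 34 genes for L-histidinol, for the combination and for osimertinib, the drug panels against vehicle; filled points were called at an adjusted p below 0.05, and colours mark roles. SDF2L1 is the farthest to the left under the combination (-1.12), and HYOU1, DNAJC10 and ERO1A lie to the right of 0 for L-histidinol and to the left under the combination.

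Osimertinib alone lowered 4 of the 9 chaperones and co-chaperones and raised none: SDF2L1 (-0.59 ± 0.09, adjusted p = 0.000541), MANF (-0.41 ± 0.07, adjusted p = 0.000652), DNAJB11 (-0.30 ± 0.07, adjusted p = 0.00404) and HYOU1 (-0.25 ± 0.07, adjusted p = 0.0221). Of all genes with a mean log2 intensity of 5 or more, 22.4% were called lower and 25.3% higher. DNAJC10 and ERO1A were lower (-0.27 ± 0.07 and -0.20 ± 0.06) and ERP29 was higher (0.22 ± 0.06). The ERAD genes OS9 (0.48 ± 0.07, adjusted p = 0.000325), SEL1L (0.44 ± 0.07, adjusted p = 0.000456) and HERPUD1 (0.36 ± 0.10, adjusted p = 0.0144) rose, as did CREB3L2 (0.52 ± 0.07, adjusted p = 0.000205) and SEC24D (0.75 ± 0.10, adjusted p = 0.000148). HSPA5 changed by -0.03 ± 0.07 and XBP1 by -0.11 ± 0.12, and neither was called. Of these 12 calls 6 held with each array left out: those of SDF2L1, MANF, OS9, SEL1L, CREB3L2 and SEC24D. The ranges of the others over the left-out arrays were -0.38 to -0.23 (DNAJB11), -0.29 to -0.25 (DNAJC10), -0.24 to -0.16 (ERO1A), 0.13 to 0.30 (ERP29), 0.17 to 0.55 (HERPUD1) and -0.33 to -0.17 (HYOU1). The call of CREB3L2 ended on the mean of all probe sets (0.19) and without the marked ones (-0.02), and the mean also ended those of ERO1A (-0.16) and HERPUD1 (0.19). Without the marked ones the call of ERO1A ended too (-0.11). A single prior variance ended the calls of ERO1A, ERP29, HERPUD1 and HYOU1, and quantile normalization that of HYOU1 (-0.21). With array medians aligned the split was 4 higher and 8 lower, and the calls of ERP29 (0.11) and HERPUD1 (0.25) ended.

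Alpelisib alone changed few of the genes. DNAJB9 (0.37 ± 0.09, adjusted p = 0.0227), OS9 (0.34 ± 0.07, adjusted p = 0.00999) and SEC24D (0.35 ± 0.10, adjusted p = 0.0376) were higher, and ERO1A was lower (-0.21 ± 0.06, adjusted p = 0.0499). SDF2L1, the gene with the largest fall under the combination, changed by -0.25 ± 0.09 (adjusted p = 0.113). HERPUD1 (0.27 ± 0.10, adjusted p = 0.0966) and CREB3L2 (0.22 ± 0.07, adjusted p = 0.0745) were not called either. None of the 4 calls held with every array left out; over the left-out arrays DNAJB9 ranged over 0.25 to 0.48, OS9 over 0.25 to 0.44, SEC24D over 0.24 to 0.47 and ERO1A over -0.27 to -0.14. With array medians aligned 1 gene was higher and 6 lower, and with quantile normalization 3 were higher and 0 lower; ERO1A was at 0.04 without the marked probe sets. All 4 calls ended on the mean of all probe sets, at 0.21 for DNAJB9, 0.30 for OS9, 0.09 for SEC24D and -0.07 for ERO1A.

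Set against osimertinib alone, the combination lowered SDF2L1 (-0.54 ± 0.09, adjusted p = 0.00385), HYOU1 (-0.31 ± 0.07, adjusted p = 0.0182), ERO1A (-0.24 ± 0.06, adjusted p = 0.0218), SSR1 (-0.24 ± 0.06, adjusted p = 0.0202) and DNAJC10 (-0.22 ± 0.07, adjusted p = 0.0491). It raised HERPUD1 (0.36 ± 0.10, adjusted p = 0.0318) and DNAJB9 (0.35 ± 0.09, adjusted p = 0.0237). All 7 calls ended when some single array was left out; that of SDF2L1 ended only without the osimertinib array that lacked L-histidinol (-0.46, adjusted p = 0.0737), and its range over the left-out arrays was -0.70 to -0.37. The ranges of the other 6 were -0.38 to -0.23 (HYOU1), -0.28 to -0.21 (ERO1A), -0.27 to -0.21 (SSR1), -0.25 to -0.20 (DNAJC10), 0.26 to 0.46 (HERPUD1) and 0.27 to 0.43 (DNAJB9). The mean of all probe sets ended the calls of HERPUD1 (0.13), ERO1A (-0.12), SSR1 (-0.19) and DNAJC10 (-0.28), and without the marked probe sets ERO1A was at -0.03 and SSR1 at 0.09. Changes of the genes that osimertinib alone raised most were 0.02 ± 0.10 for SEC24D, 0.12 ± 0.07 for CREB3L2, 0.15 ± 0.07 for OS9 and 0.07 ± 0.07 for SEL1L, none of them called.

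Set against alpelisib alone, the combination lowered 9 genes and raised 5. SDF2L1 (-0.87 ± 0.09, adjusted p = 4.35e-05), DNAJC10 (-0.43 ± 0.07, adjusted p = 0.000557), MANF (-0.40 ± 0.07, adjusted p = 0.000818) and HYOU1 (-0.39 ± 0.07, adjusted p = 0.00178) kept their calls in every alternative analysis that measured them; SDF2L1 and HYOU1 have no value without the marked probe sets. HERPUD1 (0.45 ± 0.10, adjusted p = 0.00458), SEC24D (0.42 ± 0.10, adjusted p = 0.00677), CREB3L2 (0.42 ± 0.07, adjusted p = 0.000916), SEL1L (0.37 ± 0.07, adjusted p = 0.00164) and OS9 (0.28 ± 0.07, adjusted p = 0.00944) were higher. The remaining falls were those of EDEM3 (-0.30 ± 0.10), DNAJB11 (-0.29 ± 0.07), ERO1A (-0.24 ± 0.06), SSR1 (-0.21 ± 0.06) and PDIA6 (-0.16 ± 0.06). With single arrays left out, 8 calls ended at some array: DNAJB11 (-0.38 to -0.20), EDEM3 (-0.38 to -0.22), ERO1A (-0.30 to -0.18), HERPUD1 (0.34 to 0.55), OS9 (0.18 to 0.39), PDIA6 (-0.21 to -0.11), SEC24D (0.31 to 0.53) and SSR1 (-0.24 to -0.19). The mean of all probe sets ended the calls of CREB3L2 (0.14), SEL1L (0.17, adjusted p = 0.114), HERPUD1 (0.25), EDEM3 (-0.08) and SSR1 (-0.10), and without the marked probe sets CREB3L2 was at 0.07 and SSR1 at 0.29, neither called.

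No gene of the module was called as departing from the sum of the single drugs: limma called 0 of 34 either way. Of all genes, 0% were called higher and 0.0303% lower. An unadjusted p below 0.05 was reached by 1 of the 34 and by 1748 of all 19775 genes. SDF2L1 departed by -0.29 ± 0.13 (adjusted p = 0.57) and SEC24D by -0.33 ± 0.14 (adjusted p = 0.51). Nor was the L-histidinol response called different under osimertinib or alpelisib, where 0 of 34 genes and 0% of all genes were called either way. At an unadjusted p below 0.05 lay 2 of the 34 in each case. Of all 19775 genes, 1653 did so for osimertinib and 998 for alpelisib. HERPUD1 gave the interaction -0.31 ± 0.10 (adjusted p = 0.5) with osimertinib, EDEM1 -0.29 ± 0.12 (adjusted p = 0.574) and XBP1 -0.30 ± 0.15 (adjusted p = 0.632). With alpelisib the interaction of EDEM1 was -0.32 ± 0.12 (adjusted p = 0.95) and that of SEC61B 0.25 ± 0.08 (adjusted p = 0.95). The interaction fit leaves 1 residual degree of freedom, and a p above the threshold does not show that responses were alike.

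Many of the genes have further probe sets, which were fitted singly after the gene results had been seen, with p-values adjusted over all 41091 probe sets that map to 1 symbol. The 34 genes have 90 probe sets, and 21 genes have at least 1 further probe set with a mean log2 intensity of 5 or more. Among called genes that have such a probe set, another was called the same way in 5 of 9 for L-histidinol, 8 of 10 for the combination, 3 of 5 for osimertinib and 0 of 3 for alpelisib, and in 3 of 4 for the combination against osimertinib and 4 of 8 against alpelisib. For the combination against vehicle, DNAJC10 changed by -0.50, -0.82 and -0.89 on its 3 probe sets of that brightness, and PDIA6 by -0.17, -0.18, -0.24 and -0.49 on its 4. SSR1 was split in that comparison: its brightest probe set and 3 more gave -0.33, -0.69, -0.39 and -0.58, and another 2 gave 0.68 and 0.47, all called. Shares over all genes were not computed for the probe set counts of this paragraph. On brightest probe sets, 32% of all genes of that brightness were called higher and 29.9% lower under the combination. There, 7 genes of the module not called on their brightest probe set had another that was called. ATF6 (-0.01 on its brightest) gave 0.71, 0.58 and 0.43 on the other 3, each called. ERN1 gave 0.11 on its brightest probe set and -0.65 on the second, which was called. CANX gave -0.24 on each of 2 called probe sets, and single called probe sets gave -0.39 for CALR, -0.39 for DNAJC3, -0.36 for SEC61A1 and 0.45 for DERL2. With L-histidinol this held for CANX (0.21 and 0.16), EDEM3 (0.26) and ATF6 (0.36). Under osimertinib it held for 6 genes: DNAJC3 (-0.29), PDIA6 (-0.20), DERL1 (-0.22), ATF6 (0.46), ERN1 (-0.40) and SSR1 (-0.31, 0.58 and 0.42). Under alpelisib it held for DNAJC10 (-0.32) and SSR1 (-0.30 and 0.39). For the combination against osimertinib these genes were PDIA6, DERL2 and ATF6, and against alpelisib DNAJC3, DERL2, ATF6 and ERN1. Under the combination CREB3L2 gave 0.64 on its brightest probe set and -0.01 on the other of that brightness. With L-histidinol these probe sets gave -0.33 and -0.27, both called. For L-histidinol, CALR changed by -0.31, -0.37 and -0.47 and DNAJC10 by 0.24, 0.42 and 0.33, all called, whereas SEL1L changed by 0.46 on its brightest probe set and by 0.10, 0.01 and 0.14 on the others, none of which was called. Which transcript ends the probe sets read was not examined.

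**Figure D4:**
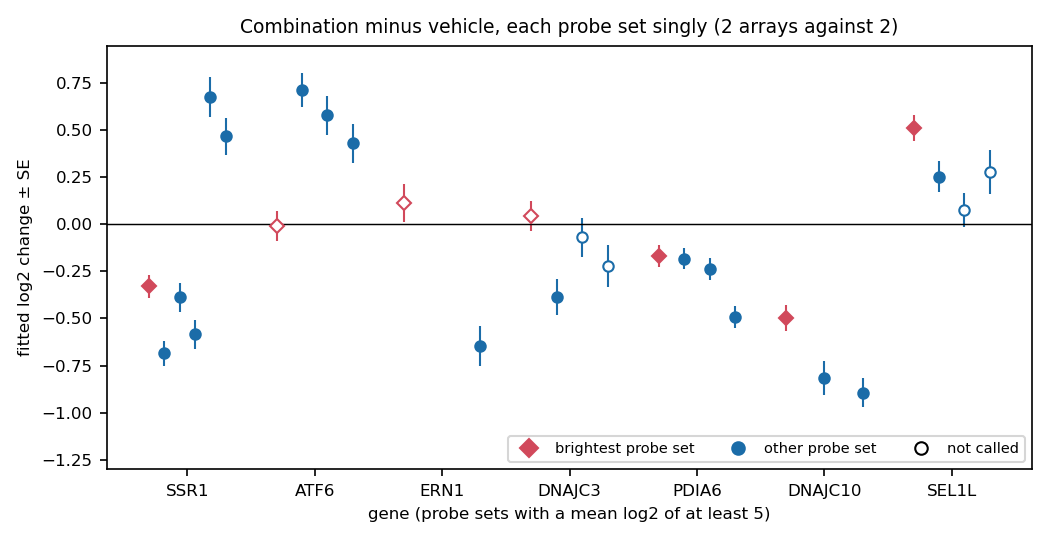
Fitted log2 change with its standard error, combination minus vehicle (vertical axis), for each probe set with a mean log2 intensity of at least 5 of 7 genes; diamonds are the brightest probe set of a gene, circles its others, and open symbols were not called. Probe sets of SSR1 lie on both sides of 0 (-0.69 to 0.68), and 3 probe sets of ATF6 lie above a brightest one at -0.01.

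Genes of the neighbouring pathways were counted over all measured members of each list. The counts stand beside 11.4% higher and 9.17% lower of all genes with L-histidinol (18.2% and 14.1% of those with a mean log2 intensity of 5 or more) and 21.4% and 19.2% under the combination (32% and 29.9%). Of 7 genes of the PERK arm, which works through eIF2 and ATF4, 6 rose with L-histidinol and 1 fell. CHAC1, an enzyme that breaks down glutathione, changed by 1.77 ± 0.14, the pseudokinase gene TRIB3 by 1.12 ± 0.09, and ATF4 itself by 0.82 ± 0.06, while DDIT3 (CHOP) changed by 0.40 ± 0.06 and EIF2AK3, which encodes PERK, by -0.21 ± 0.06. Under the combination 4 of the 7 rose and 1 fell: ATF3 (1.46 ± 0.08), DDIT3 (0.77 ± 0.09), EIF2AK3 (0.38 ± 0.08) and ATF4 (0.29 ± 0.09) were higher and TRIB3 (-0.50 ± 0.12) was lower. Of 9 further UPR regulators none rose and 2 fell with L-histidinol, and 7 rose and none fell under the combination, with CREB3L4 at 0.97 ± 0.08, WFS1 at 0.82 ± 0.09 and CREB3L1 at 0.75 ± 0.08. Both comparisons use the same 8 arrays.

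Of 22 further disulfide isomerases and folding enzymes, 3 rose and 5 fell with L-histidinol, and 5 rose and 9 fell under the combination. AGR2, an isomerase of mucus-secreting epithelium, changed by -0.99 ± 0.09 with L-histidinol and by 1.03 ± 0.12 under the combination. Of 21 further ERAD genes 5 rose and 4 fell with L-histidinol, and 8 rose and 8 fell (38.1% each) under the combination, where the conjugating enzyme gene UBE2G2 changed by -1.02 ± 0.11 and the lectin gene ERLEC1 by 0.67 ± 0.07. Of 16 COPII and ER export genes none rose and 6 fell with L-histidinol, among them the retrieval receptor gene KDELR3 (-0.71 ± 0.05), and 7 rose and 4 fell under the combination. Of 18 N-glycan genes 2 rose and 2 fell with L-histidinol, and 3 rose and 6 fell under the combination. Of 18 translocon and signal recognition genes 1 rose and 5 fell with L-histidinol, and 3 rose and 6 fell under the combination, where SRPRB changed by -1.05 ± 0.08. Of 13 chaperones of the cytosol and mitochondria, 9 fell with L-histidinol and 11 under the combination, where HSPE1 changed by -1.25 ± 0.10 and HSPH1 by -1.12 ± 0.08, and 1 rose in each. Of the 6 epithelial marker genes 4 were lower with L-histidinol and 4 higher under the combination. Of 11 markers of blood, endothelium and fibroblasts 1 was lower with L-histidinol, COL1A1 (-0.41 ± 0.06), and 3 were higher under the combination: COL1A1 (1.53 ± 0.09) and, at mean log2 intensities of 2.17 and 2.71, LUM (1.23 ± 0.16) and CDH5 (0.78 ± 0.15). COL1A1 stood at 9.62 with and 10.10 without L-histidinol under the combination, 9.39 with and 9.95 without under osimertinib, 8.63 with and 8.79 without under alpelisib, and 8.12 with and 8.55 without under vehicle. The summed linear intensity of the other 10 markers was 209.4 with and 229.5 without L-histidinol under the combination, against 212 with and 203.8 without it under vehicle. The part of these shifts in the results above was not tested.

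Grouped by promoter, the 11 measured genes with ERSE or ERSE-II gave 3 higher and 4 lower with L-histidinol (median -0.04), and the 19 measured genes with a window but neither element gave 6 higher and 4 lower (median 0.11). Under the combination the 11 gave 2 higher and 4 lower (median -0.17) and the 19 gave 6 higher and 5 lower (median 0.00). Of all genes with a mean log2 intensity of 5 or more, 18.2% were higher and 14.1% lower with L-histidinol. Under the combination these shares were 32% and 29.9%. These counts are a description, and windows without a match say only that these letters are absent there. Some genes with the same element moved in opposite directions: with L-histidinol HYOU1 and HERPUD1 rose and SDF2L1 fell among the 3 with ERSE-II, and XBP1 rose and CRELD2, CALR and HSP90B1 fell among those with ERSE. The other genes with ERSE, HSPA5, CANX, PDIA6 and ERO1B, were not called with L-histidinol.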

How the data were processed

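Total RNA of the 8 conditions was hybridised to Affymetrix Human Genome U133 Plus 2.0 arrays, 1 array each. The authors deposited linear signal intensity per probe set, made with RMA and affy per the submitters' processing notes; no versions are stated in the sources used here. Since the planned tests assumed a log scale, log2 of the deposited intensity was computed. Of 54675 probe sets, 62 were controls, 41091 mapped to 1 symbol, 1801 to several and 11721 to none in the platform annotation; 41037 matched RefSeq by Entrez identifier, and 0 symbols changed. The brightest probe set stood for each of 19775 genes, without a filter.

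An additive model of L-histidinol and drug treatment was fitted in limma 3.58.1 (R 4.3.3; lmFit, eBayes with trend), with 3 residual and 8.08 prior degrees of freedom. Interactions of L-histidinol with a drug were contrasts of a model holding all 2-way terms, with the prior kept. Adjustment was by Benjamini-Hochberg across the 19775 genes. The script was tested on simulated data. Separate cultures are not stated, and p-values measure departures from additive effects between single arrays. The number of arrays limits the precision. The members, roles and gene lists were chosen with earlier results of these data known. Genes were named by rule: all members, and of each further list up to 3 called genes with the largest change per comparison, or any of the PERK arm. Alternatives were the mean of probe sets, probe sets with marked names left out, one prior variance, median centring, quantile normalization, genes with a mean log2 of at least 5, all 2-way terms, and each array left out. Promoter sequences are from RefSeq GRCh38.p14. Tables were made with Python 3.11.15, pandas 2.3.3 and numpy 2.4.6 and drawn with matplotlib 3.10.9.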

Additional observations from a re-analysis of the deposited data

Results flagged for a closer look

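In 2 genes the 4 differences between the arrays with and without L-histidinol, 1 for each drug treatment, held a value far from the other 3 by Dixon's criterion, which compares the gap to the nearest value with the whole range at its 95% critical value. XBP1 differed by 0.92 under vehicle and by 0.34 to 0.43 under the other 3 treatments, a gap of 0.843 of the range. DERL1 differed by 0.03 (0.0255) under the combination and by -0.10 to -0.08 under the other 3, a gap of 0.835 of the range, and its L-histidinol change was not called. Chance flags about 1 in 20 such groups, and 34 genes were examined. The interaction of L-histidinol with osimertinib for XBP1 was -0.30 ± 0.15 with a limma adjusted p of 0.63. That contrast sets the combination and osimertinib pairs against the alpelisib and vehicle pairs. It does not test the vehicle pair against the other 3.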

How the results depend on the processing

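The L-histidinol comparison is paired by drug treatment through the additive model; no further block by replicate number could be fitted, since each condition has 1 array and the labels carry no replicate numbers. The 73 gene changes called in the report have 847 alternative values that kept direction and call, 215 that kept direction and lost the call, and 6 that turned direction. Those 6 all came from leaving out probe sets with marked names: CREB3L2 at -0.0214 under osimertinib and -0.0104 under the combination, ERO1A at 0.0356 under alpelisib, and SSR1 at 0.68 under the combination, 0.0938 against osimertinib and 0.29 against alpelisib. In the counts of members called, leaving out marked probe sets gave 5 higher for L-histidinol, 3 higher for osimertinib, 0 lower for alpelisib, 5 higher and 6 lower for the combination, 1 higher and 1 lower for the combination against osimertinib, and 1 higher and 4 lower against alpelisib. This setting measured 26 of the 34 genes. The mean of probe sets gave 0 higher and 0 lower for alpelisib, 1 higher and 2 lower for the combination against osimertinib, and 3 higher against alpelisib. One prior variance gave 5 lower for L-histidinol, 0 higher and 0 lower for alpelisib, 0 higher and 1 lower for the combination against osimertinib, and 5 lower against alpelisib. Median centring gave 1 higher and 6 lower for alpelisib and 17 lower for the combination, and quantile normalization 0 lower for alpelisib. The fit with all 2-way terms gave 14 higher for L-histidinol, 6 higher and 7 lower for alpelisib, 5 higher and 13 lower for the combination against osimertinib, 9 higher against alpelisib, and 1 lower beyond the sum of the single drugs. With the prior estimated from that fit, 1 gene was lower in the interaction of L-histidinol with osimertinib and 1 higher in that with alpelisib. With each array left out, the counts ranged over 8 to 11 higher and 5 to 8 lower for L-histidinol, 4 to 8 and 2 to 6 for osimertinib, 0 to 4 and 0 to 2 for alpelisib, 6 to 9 and 8 to 11 for the combination, 0 to 3 and 0 to 6 for the combination against osimertinib, 2 to 7 and 4 to 9 against alpelisib, and 0 to 0 either way beyond the sum. The cause of these shifts was not tested. No change of direction came from scaling in a called gene, and 1 measured gene, ERO1B, lay below a mean log2 of 5.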
